A study of Mus musculus with 8 samples.

Results

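The unfolded protein response and heat shock chaperones were followed in mouse bone marrow-derived macrophages (BMDMs) as 47 genes, all found by symbol among the 55226 genes of the table. They comprise the stress sensors and effectors of the endoplasmic reticulum (ER), its folding enzymes and degradation factors, the heat shock transcription factors, and the cytosolic and mitochondrial chaperones. Of the 47, 45 had a mean expression of at least 3 and were tested. Hspa1b and Hspb1 fell below that filter.

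BMDMs were grown for 7 days from femur marrow of C57BL/6 mice with 10 ng/ml M-CSF, and poly(A) RNA was sequenced. The 4 groups of 2 samples were PtipcKO cells (here cKO) after 6 h of LPS at 100 ng/ml, cKO cells at 0 h, PtipWT cells (here WT) after 6 h of LPS, and WT cells at 0 h. PTIP is the product of Paxip1, cKO is its conditional knockout, and LPS is a bacterial cell wall component that macrophages sense through a Toll-like receptor. The sources used here name neither the Cre driver, the deleted exons nor the age of the mice. Nor do they tie the replicate numbers to single mice, and each p measures only how far these samples scatter, which may be technical. All levels below are rlog values, which are log2 expression values from which the authors' transformation removes part of the noise of genes with few reads. Differences are therefore log2 differences that understate the change of low genes, and levels are compared between samples and not between genes. In bulk RNA, fewer cells of a type and less RNA per cell cannot be told apart.

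Paxip1 was lower in all 4 cKO samples than in any WT sample, with a difference of -1.36 after LPS (SE 0.18, adjusted p = 0.0156, limma) and -1.99 at 0 h (SE 0.18, adjusted p = 0.00686, limma). Its level was 2.54 and 2.63 in cKO LPS samples, 2.54 and 2.48 in cKO 0 h samples, 3.82 and 4.08 in WT LPS samples and 4.50 and 4.50 in WT 0 h samples. All cKO levels were below 3, so Paxip1 passed the filter only through its WT samples. As the targeted gene, it serves here only as a check of the knockout. The authors' deposited table called it lower at 0 h (log2 fold change -4.75, adjusted p = 0.00196) and did not call it after LPS (-4.04). All 10 macrophage markers, such as Csf1r and Adgre1, passed the filter, as did 2 of 8 neutrophil, 1 of 5 B cell, 0 of 5 T and NK cell, 1 of 4 dendritic cell, 0 of 5 stromal, 0 of 5 erythroid and 2 of 3 mast cell markers. The mast cell marker Mcpt4 was listed at 0 in every sample. The log2 of the summed neutrophil markers was 8.54 to 8.77 in cKO LPS samples, 7.95 to 8.04 in cKO 0 h samples, 7.59 to 8.14 in WT LPS samples and 6.84 to 7.43 in WT 0 h samples. The sum of the macrophage markers was 18.57 to 18.63 in cKO LPS samples, 18.43 to 18.75 in cKO 0 h samples, 19.49 to 19.54 in WT LPS samples and 19.24 to 19.32 in WT 0 h samples. Lyz2, the most abundant of the macrophage markers, was at 18.16 and 18.20 in cKO LPS samples, 18.13 and 18.46 in cKO 0 h samples, 19.19 and 19.31 in WT LPS samples and 19.00 and 19.12 in WT 0 h samples. Cd68 lay between 14.67 and 14.83 in the cKO samples and between 14.42 and 14.73 in the WT samples. Spi1 lay between 9.17 and 12.50 in the cKO samples and between 8.17 and 9.09 in the WT samples. These 2 markers were not lower in cKO. Itgam lay between 8.74 and 9.30 in the cKO samples and between 9.93 and 10.21 in the WT samples. Cd14 was also lower in cKO at each time, without overlap. Mertk, Fcgr1 and Aif1 were lower in cKO after LPS but overlapped at 0 h. Csf1r and Adgre1 were lower in cKO at 0 h but overlapped after LPS. S100a8 was the more abundant of the neutrophil markers past the filter and made up most of the neutrophil sum. It was higher in cKO at both times, with 8.23 and 8.35 in cKO LPS samples and 7.23 and 7.6 in WT LPS samples. Camp was also higher in cKO after LPS, but its groups overlapped at 0 h. No neutrophil marker below the filter was higher in both cKO samples than in both WT samples at either time. S100a9 lay between 0.87 and 1.57 in cKO samples and between 0.88 and 2.56 in WT samples. Differences of such low genes are understated, so these markers cannot show whether the cKO samples held more neutrophils. That was not tested. The part of these shifts in the differences below was not tested.

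When unfolded proteins accumulate in the ER, IRE1 (gene Ern1), PERK (Eif2ak3) and ATF6 (Atf6) are activated. IRE1 splices the Xbp1 mRNA into the form that encodes an active transcription factor, PERK phosphorylates the translation factor eIF2 alpha, and ATF6 is cut to release a transcription factor. ATF6 and XBP1 raise chaperones such as BiP (Hspa5) and the machinery of ER-associated degradation (ERAD), which sends misfolded proteins to the proteasome. In the cytosol HSF1 raises heat shock proteins. Secretion of cytokines puts a load on the ER of a stimulated macrophage.

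A DNA element was sought in the members' promoters because ATF6, with the factor NF-Y, is known to bind it. This ER stress response element (ERSE, CCAAT followed by CCACG with 9 free bases between them, on either strand) was found in the 250 bases before the RefSeq start (GRCm38.p6) of 8 of the 36 members with a promoter entry (22.2%), against 0.13% of 27025 genes. The related ERSE-II, ATTGG and CCACG with 1 free base between them, was found in Herpud1 alone of the members, against 0.037% of all genes. The heat shock element, searched as 3 alternating GAA and TTC triplets with 2 free bases between neighbours, on either strand, was found in the shared promoter of Hspd1 and Hspe1, 2 of 36 members (5.56%), against 0.514% of all genes. The UPRE core TGACGTGG and the CARE element TGATGNAAT were found in 0 of 36 members, against 0.603% and 0.91% of all genes. When the 50 bases after the start were added, Dnajb11 also held an ERSE-II and Hsph1 a heat shock element. Only exact matches were counted, so a member without a match is not shown to lack a working site. The Hspa5 and Hspd1 elements also lie in an exon that GENCODE M21 annotates, and the other elements shown do not. No match of one element overlapped a match of another. Members were chosen from the pathways in which these elements are known, so their shares are descriptions and not tests. The entries matched 36 members, and Atf6, Ppp1r15b, Derl1, Manf, Hyou1, Ero1l, Hsf1, Hspa8, Hspa9, Hsp90aa1 and Hsp90ab1 had no entry. The stretches are shown because they let the members with an element be set beside their response to LPS. The element is in capitals, each stretch is read on the gene's own strand, and the distance is that of the element from the start.
Hspa5, chr2:34772020-34772048, plus strand, 65 to 47 bases before the start: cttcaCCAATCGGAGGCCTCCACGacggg
Syvn1, chr19:6046517-6046565, plus strand, 44 to 26 bases before the start: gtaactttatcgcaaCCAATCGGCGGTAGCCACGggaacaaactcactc
Hsp90b1, chr10:86705518-86705566, minus strand, 107 to 89 bases before the start: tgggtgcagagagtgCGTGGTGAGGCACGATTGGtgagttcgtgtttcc
Hsp90b1, chr10:86705623-86705671, minus strand, 212 to 194 bases before the start: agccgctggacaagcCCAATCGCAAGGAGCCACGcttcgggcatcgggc
Calr, chr8:84847060-84847108, minus strand, 162 to 144 bases before the start: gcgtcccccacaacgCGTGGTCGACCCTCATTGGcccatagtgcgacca
Canx, chr11:50325785-50325833, minus strand, 145 to 127 bases before the start: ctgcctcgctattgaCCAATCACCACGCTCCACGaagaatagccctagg
Pdia6, chr12:17266476-17266524, plus strand, 98 to 80 bases before the start: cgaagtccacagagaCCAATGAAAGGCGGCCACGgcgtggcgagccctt
Dnajc3, chr14:118937812-118937860, plus strand, 105 to 87 bases before the start: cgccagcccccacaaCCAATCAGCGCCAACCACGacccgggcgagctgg
Creld2, chr15:88819505-88819553, plus strand, 126 to 108 bases before the start: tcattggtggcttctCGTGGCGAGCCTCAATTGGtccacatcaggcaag
Herpud1 (ERSE-II), chr8:94386362-94386402, plus strand, 52 to 42 bases before the start: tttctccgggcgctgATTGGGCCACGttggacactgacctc
Hspd1 (heat shock element), chr1:55088054-55088081, minus strand, 144 to 127 bases before the start: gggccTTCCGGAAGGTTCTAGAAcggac

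LPS raised some members and lowered others in both cKO and WT. In cKO 11 members rose and 4 fell (background 19.6% and 17.5%), and in WT 9 rose and 6 fell (background 22.5% and 19.7%), in limma's test on all 8 samples with Benjamini-Hochberg adjustment over 11543 genes and a threshold of 0.05. That is 33.3% of the 45 in each genotype, where 37.0% of all tested genes were called in cKO and 42.2% in WT, so the members' shares lay a little below the background. The median change was -0.02 in cKO and 0.01 in WT, against -0.02 and -0.01 over all tested genes. The calls in cKO and WT, which rest on different samples but on one variance estimate per gene, shared 12 members, which is 12 of the 15 called in cKO and 12 of the 15 called in WT. The share of all tested genes called in the same direction in both genotypes was not computed. This overlap is therefore not shown to be particular to the members. The shared rises were Ppp1r15a, Ppp1r15b, Hspa5, Syvn1, Edem1, Sel1l, Dnaja1, Hsp90aa1 and Hsp90ab1, and the shared falls were Herpud1, Eif2ak3 and Dnajb9. Quantile normalization of the samples gave 6 rises and 13 falls in cKO (background 17.4% and 21.7%) and 5 rises and 16 falls in WT (background 19.2% and 24.0%). The authors' deposited table called 11 members higher and 2 lower in cKO (background 8.73% and 6.23%) and 8 higher and 4 lower in WT (background 8.96% and 6.33%).

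**Figure D1:**
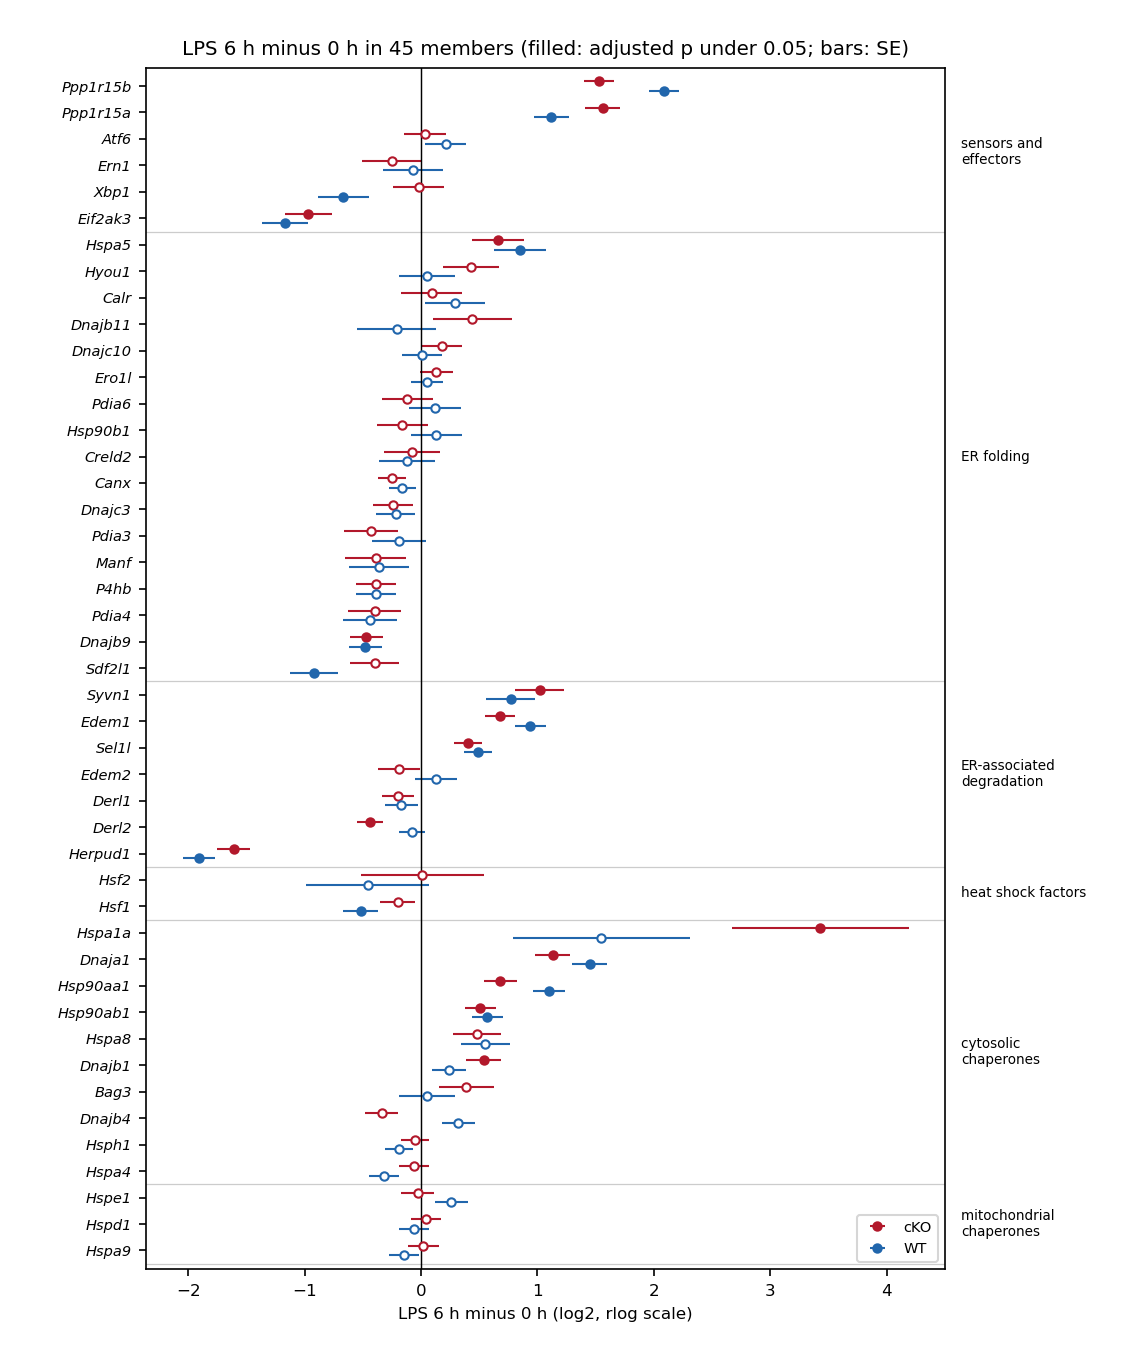
LPS effect (6 h minus 0 h, log2, rlog scale) of the 45 tested members in cKO (red, upper point) and WT (blue, lower point), grouped by role; bars are the SE of the limma fit and filled points passed an adjusted p of 0.05. Herpud1 and Eif2ak3 lie left of 0 and Ppp1r15a, Ppp1r15b, Syvn1, Edem1 and Dnaja1 right of it in both genotypes, while most ER folding members lie near 0.

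Among the sensors, the gene of PERK fell after LPS and those of IRE1 and ATF6 did not pass the test. Eif2ak3 (chromosome 6, 70844515 to 70905245, plus strand, GRCm38) had levels of 3.74 and 3.32 in cKO LPS samples, 4.59 and 4.41 in cKO 0 h samples, 3.40 and 3.36 in WT LPS samples and 4.47 and 4.63 in WT 0 h samples. Every LPS sample was below every 0 h sample. The change was -0.97 (SE 0.20, adjusted p = 0.00665) in cKO and -1.17 (SE 0.20, adjusted p = 0.0022) in WT. Ern1 ranged over 4.81 and 5.07 in cKO LPS samples, 5.42 and 4.97 in cKO 0 h samples, 5.40 and 5.15 in WT LPS samples and 5.07 and 5.63 in WT 0 h samples, with overlapping groups in both genotypes and changes of -0.25 (SE 0.26) in cKO and -0.07 (SE 0.26) in WT. Atf6 differed by 0.03 in cKO and 0.21 in WT (SE 0.18 each), with levels of 7.34 and 7.77 in cKO LPS samples, 7.48 and 7.57 in cKO 0 h samples, 8.11 and 8.03 in WT LPS samples and 7.69 and 8.02 in WT 0 h samples. Neither gene separated LPS from 0 h samples in cKO. Xbp1, whose spliced and unspliced forms are counted together here, had 11.60 and 11.22 in cKO LPS samples, 11.39 and 11.47 in cKO 0 h samples, 10.92 and 10.59 in WT LPS samples and 11.13 and 11.71 in WT 0 h samples. It fell in WT by 0.67 (SE 0.22, adjusted p = 0.0364) and differed by -0.02 (SE 0.22, adjusted p = 0.96) in cKO. The WT call of Xbp1 was lost without WT LPS replicate 2 (-0.50, adjusted p = 0.167), without WT 0 h replicate 2 (-0.38, adjusted p = 0.213), without filtering (adjusted p = 0.145), with the trend omitted (adjusted p = 0.0517) and in a fit of the 4 WT samples alone (adjusted p = 0.0646). The cKO call of Eif2ak3 was lost without cKO LPS replicate 2 (-0.76, adjusted p = 0.0528) and was absent from the authors' deposited table (log2 fold change -1.90, adjusted p = 0.101).

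Both regulatory subunits of the phosphatase that removes the eIF2 alpha phosphate rose after LPS. Ppp1r15b, the constitutive subunit CReP (chromosome 1, 133131143 to 133139783, plus strand), had levels of 8.94 and 9.12 in cKO LPS samples, 7.51 and 7.49 in cKO 0 h samples, 9.56 and 9.51 in WT LPS samples and 7.37 and 7.52 in WT 0 h samples. It rose by 1.53 (SE 0.13, adjusted p = 7.12e-05) in cKO and 2.09 (SE 0.13, adjusted p = 1.51e-05) in WT, and the groups were far apart in both. Ppp1r15a, the stress-inducible subunit GADD34 (chromosome 7, 45522916 to 45526268, minus strand), had 12.14 and 12.31 in cKO LPS samples, 10.67 and 10.66 in cKO 0 h samples, 13.01 and 12.96 in WT LPS samples and 12.06 and 11.67 in WT 0 h samples. It rose by 1.56 (SE 0.15, adjusted p = 0.000145) in cKO and 1.12 (SE 0.15, adjusted p = 0.000589) in WT. The WT call of Ppp1r15a was lost under quantile normalization (0.41, adjusted p = 0.0726).

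**Figure D2:**
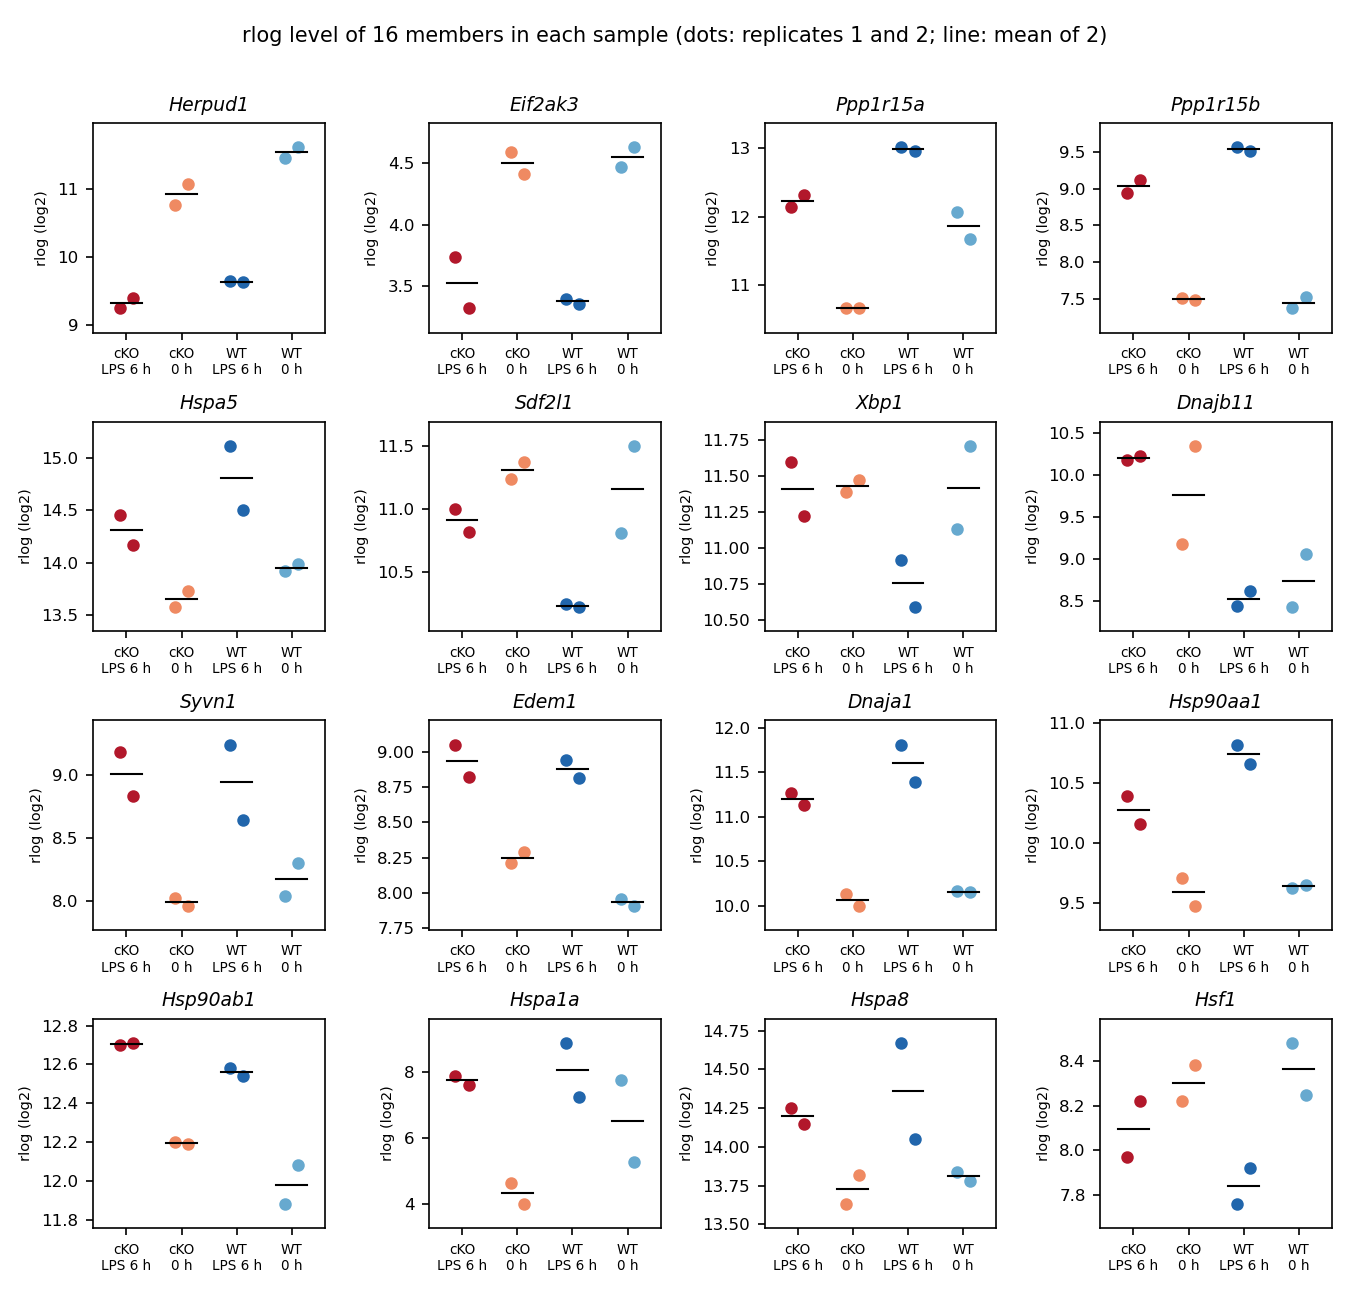
rlog level (log2) of 16 members in each sample, in cKO after LPS, cKO at 0 h, WT after LPS and WT at 0 h; dots are replicates 1 and 2 and the line is their mean. Herpud1 lies between 9.24 and 9.64 in the 4 LPS samples and between 10.77 and 11.62 in the 4 samples at 0 h, whereas Hspa1a spans 5.28 to 7.76 in WT at 0 h alone.

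Of the 17 ER folding members, 15 did not pass the test in cKO and 14 did not in WT. Those called made up 11.8% in cKO and 17.6% in WT, where 37.0% and 42.2% of all tested genes were called. Hspa5, the gene of the chaperone BiP that also holds the ER stress sensors inactive (chromosome 2, 34771970 to 34777547, plus strand), had levels of 14.45 and 14.17 in cKO LPS samples, 13.58 and 13.73 in cKO 0 h samples, 15.11 and 14.50 in WT LPS samples and 13.92 and 13.99 in WT 0 h samples. The LPS samples lay above the 0 h samples in each genotype, by 0.66 in cKO (SE 0.22, adjusted p = 0.0468) and 0.85 in WT (SE 0.22, adjusted p = 0.0146). Dnajb9, an ER co-chaperone of BiP, fell, with 9.07 and 8.98 in cKO LPS samples, 9.51 and 9.48 in cKO 0 h samples, 9.59 and 9.25 in WT LPS samples and 9.83 and 9.97 in WT 0 h samples. Its change was -0.47 (SE 0.14, adjusted p = 0.0294) in cKO and -0.48 (SE 0.14, adjusted p = 0.0231) in WT. Sdf2l1, an ER chaperone component known as an ER stress target, had 11.00 and 10.82 in cKO LPS samples, 11.24 and 11.37 in cKO 0 h samples, 10.24 and 10.22 in WT LPS samples and 10.81 and 11.50 in WT 0 h samples. Both WT LPS samples were below every other sample, and Sdf2l1 fell by 0.92 (SE 0.21, adjusted p = 0.00756) in WT, with a difference of -0.40 (SE 0.21, adjusted p = 0.169) in cKO. The median change of the 17 was -0.16 in cKO and -0.16 in WT.

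The Hspa5 call was fragile. In cKO it was lost without any one of the 4 cKO samples or either WT 0 h sample (adjusted p between 0.0606 and 0.239), without filtering (adjusted p = 0.156) and under quantile normalization (0.19, adjusted p = 0.468). In WT it was lost without WT LPS replicate 1 (0.54, adjusted p = 0.0696), without WT 0 h replicate 1 (0.81, adjusted p = 0.064), without filtering (adjusted p = 0.0651) and under quantile normalization (0.17, adjusted p = 0.498). In the authors' deposited table Hspa5 was higher after LPS in cKO (log2 fold change 0.72, adjusted p = 0.00271) and in WT (0.93, adjusted p = 0.00518). Dnajb9 did not pass there (adjusted p = 0.0705 in cKO and 0.113 in WT), and it lost its call here without any one of the 4 cKO samples in cKO (adjusted p between 0.0852 and 0.152) and without WT LPS replicate 2 (-0.32, adjusted p = 0.117) or WT 0 h replicate 2 (-0.41, adjusted p = 0.114) in WT. Without filtering Dnajb9 did not pass in cKO (adjusted p = 0.0814) or WT (adjusted p = 0.0637), nor with the trend omitted in cKO (adjusted p = 0.0504) or in the 4 WT samples alone (adjusted p = 0.0654). The glucose-regulated chaperone gene Hsp90b1 differed by -0.16 in cKO and 0.13 in WT (SE 0.22 each), and the lectin chaperone genes Calr by 0.09 and 0.29 (SE 0.26 each) and Canx by -0.25 and -0.16 (SE 0.12 each). The disulphide isomerase genes Pdia3, Pdia4, Pdia6 and P4hb differed by -0.43, -0.40, -0.12 and -0.39 in cKO and by -0.19, -0.44, 0.12 and -0.39 in WT, and none of these passed with all samples. Without WT LPS replicate 1 the WT changes were -0.56 for Pdia3 (adjusted p = 0.0403), -0.84 for Pdia4 (adjusted p = 0.0065), -0.61 for P4hb (adjusted p = 0.0236) and -0.79 for Manf (adjusted p = 0.0181). Without WT LPS replicate 2 that of Calr was 0.71 (adjusted p = 0.0292). Under quantile normalization Canx, Pdia3, Pdia4, P4hb and Dnajc3 passed as lower in both genotypes, at -0.98 to -0.56 in cKO and -0.97 to -0.64 in WT. Hsp90b1 (-0.63) and Sdf2l1 (-0.81) passed there in cKO. Dnajc3, Dnajc10, Manf, Creld2, Hyou1 and Ero1l lay between -0.39 and 0.43 in cKO and between -0.36 and 0.05 in WT without passing with all samples.

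The 2 samples of a group differed in the same direction in most ER folding members, except in cKO at 0 h. After LPS replicate 1 was above replicate 2 in 14 of the 17 in cKO, with a median difference of 0.18, and in 14 of the 17 in WT, with a median of 0.46. At 0 h it was above in 7 of 17 in cKO (median -0.09) and in 2 of 17 in WT (median -0.14). Over all tested genes the median difference between replicates was 0.01 in cKO after LPS, 0.00 in cKO at 0 h, 0.02 in WT after LPS and 0.01 in WT at 0 h. Replicate 1 was the higher in 51.0% of them in cKO after LPS, 49.9% in cKO at 0 h, 52.5% in WT after LPS and 50.8% in WT at 0 h. In WT after LPS the gap for Calr was 11.19 against 10.36, for Pdia4 10.44 against 9.66 and for Manf 9.92 against 9.06. After LPS the gap between replicates was larger than the LPS effect in 5 of the 17 in cKO and in 12 of the 17 in WT. The share of all tested genes with such a gap was not computed. What set these samples apart was not tested.

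**Figure D3:**
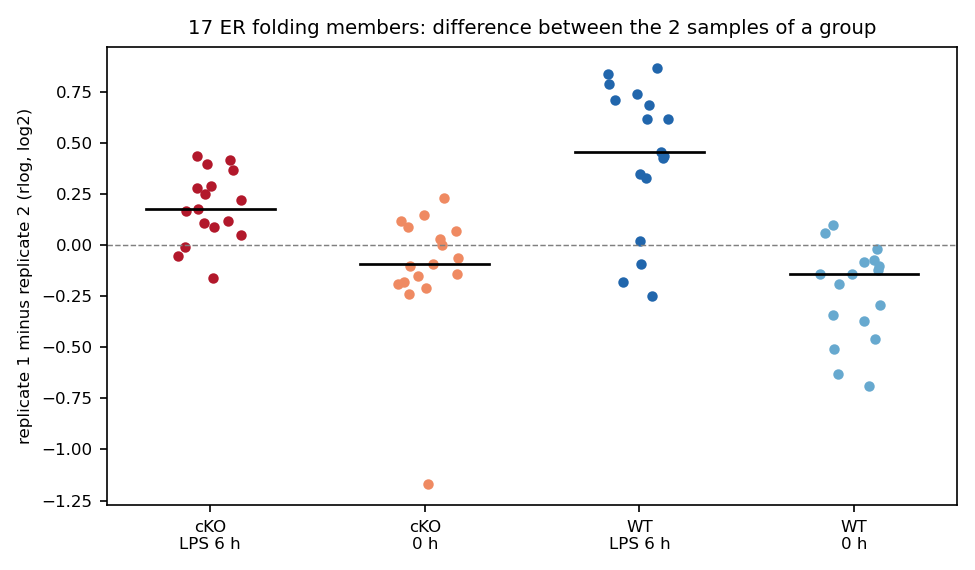
Difference between replicate 1 and replicate 2 (rlog, log2) for each of the 17 ER folding members in cKO after LPS, cKO at 0 h, WT after LPS and WT at 0 h; the line is the median. The median is 0.18 in cKO after LPS and 0.46 in WT after LPS, against -0.09 in cKO at 0 h and -0.14 in WT at 0 h.

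The members with an ERSE did not move together after LPS. Of the 8, Hspa5 and Syvn1 rose in both genotypes and the other 6 did not pass in either. Their changes ran from -0.25 to 1.02 in cKO (median -0.10) and from -0.22 to 0.85 in WT (median 0.13). Of the 12 other ER folding and ERAD members with a promoter entry, 2 rose and 3 fell in cKO (median -0.39), and 2 rose and 3 fell in WT (median -0.20). Over all tested genes 19.6% rose and 17.5% fell in cKO, and 22.5% rose and 19.7% fell in WT. Herpud1, with the ERSE-II element, had the deepest fall of the 45 members in both genotypes.

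Of the 7 ERAD members, Syvn1, Sel1l and Edem1 rose in both genotypes, Herpud1 fell in both and Derl2 fell in cKO. In cKO 3 rose and 2 fell (background 19.6% and 17.5%), and in WT 3 rose and 1 fell (background 22.5% and 19.7%). Herpud1 (chromosome 8, 94386438 to 94395377, plus strand), a membrane protein that serves the ligase complex, had levels of 9.24 and 9.39 in cKO LPS samples, 10.77 and 11.08 in cKO 0 h samples, 9.64 and 9.63 in WT LPS samples and 11.47 and 11.62 in WT 0 h samples. The LPS samples were lower by more than any gap between replicates, with a change of -1.61 (SE 0.14, adjusted p = 8.4e-05) in cKO and -1.91 (SE 0.14, adjusted p = 2.68e-05) in WT. In the authors' deposited table the log2 fold change was -1.78 in cKO (adjusted p = 5.49e-14) and -2.14 in WT (adjusted p = 2.85e-17). Syvn1, the ubiquitin ligase HRD1, had 9.18 and 8.83 in cKO LPS samples, 8.02 and 7.96 in cKO 0 h samples, 9.24 and 8.64 in WT LPS samples and 8.04 and 8.30 in WT 0 h samples. It rose by 1.02 (SE 0.21, adjusted p = 0.00656) in cKO and 0.77 (SE 0.21, adjusted p = 0.0195) in WT, above every 0 h sample. Sel1l, its partner, rose by 0.40 (SE 0.12, adjusted p = 0.0288) in cKO and 0.49 (SE 0.12, adjusted p = 0.0113) in WT. Edem1, which directs misfolded glycoproteins to degradation, had 9.05 and 8.82 in cKO LPS samples, 8.21 and 8.29 in cKO 0 h samples, 8.94 and 8.81 in WT LPS samples and 7.96 and 7.91 in WT 0 h samples. Its rise was 0.68 (SE 0.13, adjusted p = 0.00419) in cKO and 0.94 (SE 0.13, adjusted p = 0.000659) in WT. Derl2, a channel component, had 10.73 and 10.68 in cKO LPS samples, 11.15 and 11.15 in cKO 0 h samples, 11.14 and 11.23 in WT LPS samples and 11.32 and 11.21 in WT 0 h samples. Both cKO LPS samples were below every other sample. It fell by 0.44 (SE 0.11, adjusted p = 0.0151) in cKO and differed by -0.08 in WT, and its paralog Derl1 differed by -0.20 in cKO and -0.17 in WT. Edem2 differed by -0.19 in cKO and 0.13 in WT. Syvn1 lost its cKO call without cKO LPS replicate 1 (0.84, adjusted p = 0.0564) and its WT call without WT LPS replicate 1 (0.47, adjusted p = 0.103), without WT 0 h replicate 1 (0.64, adjusted p = 0.111) and without filtering (adjusted p = 0.0889). The small changes of Sel1l and Derl2 in cKO were lost without any one of the 4 cKO samples (adjusted p between 0.065 and 0.185 for Sel1l and between 0.0617 and 0.0997 for Derl2), that of Sel1l in WT without WT 0 h replicate 2 (adjusted p = 0.0615), and Sel1l did not pass in the authors' deposited table (adjusted p = 0.105 in cKO and 0.129 in WT). Under quantile normalization the change of Sel1l was 0.05 in cKO (adjusted p = 0.755) and 0.01 in WT (adjusted p = 0.962). In cKO it did not pass without filtering (adjusted p = 0.0569) or with the trend omitted (adjusted p = 0.0557). Derl2 passed as lower in WT under quantile normalization (-0.64, adjusted p = 0.00273). Derl1 passed there as lower in cKO (-0.52, adjusted p = 0.0154) and WT (-0.58, adjusted p = 0.00841), and Edem2 in cKO (-0.59, adjusted p = 0.0362).

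Other genes of the ER pathways were taken from textbook lists, and their counts stand beside a background of 19.6% higher and 17.5% lower in cKO and 22.5% higher and 19.7% lower in WT. Among 21 tested further folding factors, 2 rose and 3 fell in cKO, and 4 rose and 1 fell in WT. Dnajc1, an ER co-chaperone, rose by 1.51 in cKO and 2.44 in WT, and P4ha1, a collagen prolyl hydroxylase subunit, rose by 1.41 in cKO and 1.74 in WT, while Erp29 fell by 0.69 in cKO and 0.73 in WT and Fkbp11 fell by 0.73 in cKO. Among 19 further ERAD factors, 4 rose and 2 fell in cKO, and 4 rose and 3 fell in WT, with the ubiquitin ligase gene Rnf139 rising by 1.77 in cKO and 2.12 in WT, Faf2 by 0.62 and 0.54, and the deglycosylase gene Ngly1 falling by 0.48 in cKO and 0.51 in WT. The 27 genes of the translocon, signal peptidase and oligosaccharyltransferase had 1 rise and 5 falls in cKO and 3 rises and 4 falls in WT. The signal peptidase gene Sec11c fell by 0.95 in cKO and 0.65 in WT, and Srpr, a subunit of the signal recognition particle receptor, rose by 0.68 in cKO and 0.70 in WT. Of 22 tested genes of the ATF4 and integrated stress response, 8 rose and 0 fell in cKO, and 7 rose and 1 fell in WT, with medians of 0.43 in cKO and 0.71 in WT against -0.02 and -0.01 over all tested genes. Slc7a11, the cystine transporter, rose by 2.62 in cKO and 2.22 in WT, Psat1, a serine synthesis enzyme, by 2.26 and 2.29, and Phgdh by 2.36 in cKO, while Shmt2 fell by 0.76 in WT.

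Cytosolic chaperones that passed the test rose. Of the 10 tested, 5 rose and 0 fell in cKO (where 19.6% of all tested genes rose), and 3 rose and 0 fell in WT (where 22.5% rose). The medians were 0.50 in cKO and 0.44 in WT against -0.02 and -0.01 over all tested genes. Dnaja1, a co-chaperone of the HSP70 family (chromosome 4, 40722150 to 40737149, plus strand), had levels of 11.26 and 11.13 in cKO LPS samples, 10.13 and 10.00 in cKO 0 h samples, 11.81 and 11.39 in WT LPS samples and 10.16 and 10.15 in WT 0 h samples. It rose by 1.13 (SE 0.15, adjusted p = 0.000752) in cKO and 1.45 (SE 0.15, adjusted p = 0.000152) in WT. Hsp90aa1, the inducible HSP90, had 10.39 and 10.16 in cKO LPS samples, 9.71 and 9.48 in cKO 0 h samples, 10.82 and 10.66 in WT LPS samples and 9.63 and 9.65 in WT 0 h samples. The LPS samples were above all 0 h samples for both genes. Hsp90aa1 rose by 0.68 (SE 0.14, adjusted p = 0.00558) in cKO and 1.10 (SE 0.14, adjusted p = 0.000361) in WT, as did the constitutive Hsp90ab1, which had 12.70 and 12.71 in cKO LPS samples, 12.20 and 12.19 in cKO 0 h samples, 12.58 and 12.54 in WT LPS samples and 11.88 and 12.08 in WT 0 h samples. Hsp90ab1 rose by 0.51 (SE 0.13, adjusted p = 0.013) in cKO and 0.57 (SE 0.13, adjusted p = 0.00669) in WT. Under quantile normalization the change of Hsp90ab1 was -0.06 in cKO and -0.12 in WT, and it did not pass in WT in the authors' deposited table (adjusted p = 0.0503). In cKO its call was also lost without any one of the 4 cKO samples (adjusted p between 0.0545 and 0.0816), and that of Hsp90aa1 without cKO LPS replicate 1 (0.56, adjusted p = 0.0537) and under quantile normalization (0.40, adjusted p = 0.0609).

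Hspa1a, a stress-induced HSP70 (chromosome 17, 34969190 to 34972156, minus strand), had the widest range of the members, 4.88 over the 8 samples, ahead of Herpud1 at 2.38. Its levels were 7.90 and 7.63 in cKO LPS samples, 4.66 and 4.01 in cKO 0 h samples, 8.89 and 7.25 in WT LPS samples and 7.76 and 5.28 in WT 0 h samples. In cKO the LPS samples were far above the 0 h samples, whereas in WT the groups overlapped, with WT 0 h replicate 1 as high as the cKO LPS samples. Hspa1a rose by 3.43 (SE 0.76, adjusted p = 0.00819) in cKO and differed by 1.55 (SE 0.76, adjusted p = 0.133) in WT, and the interaction of 1.88 did not pass (adjusted p = 0.78). With a replicate block in limma the WT difference passed, by number (adjusted p = 0.026) or by genotype and number (adjusted p = 0.00106). The labels do not say whether same-numbered samples are paired. The cKO call was lost without cKO LPS replicate 1 (3.30, adjusted p = 0.051) and without filtering (adjusted p = 0.0712), and the WT difference passed without WT 0 h replicate 1 (2.79, adjusted p = 0.0119). Its neighbour Hspa1b had 2.92 and 2.32 in cKO LPS samples, 1.58 and 1.87 in cKO 0 h samples, 3.59 and 2.92 in WT LPS samples and 2.05 and 2.04 in WT 0 h samples. The LPS samples were higher in both genotypes, but at a level below the filter. Their transcripts are identical at 99.1% of 2200 aligned bases, with a longest shared run of 638 bases (GENCODE M21), so reads cannot be assigned with certainty to one or the other. The authors' deposited table called Hspa1b higher after LPS in WT (log2 fold change 2.89, adjusted p = 0.014) and Hspa1a in cKO (4.33, adjusted p = 7.21e-21). A gene on the opposite strand, Gm20481, overlaps 19.0% of the exonic bases of Hspa1a, and whether the counting used strand is not given in the sources used here.

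Of the remaining cytosolic members, Dnajb1 rose in cKO and the others did not pass with all samples before quantile normalization. Hspa8, the constitutive HSC70, had 14.25 and 14.15 in cKO LPS samples, 13.63 and 13.82 in cKO 0 h samples, 14.67 and 14.05 in WT LPS samples and 13.84 and 13.78 in WT 0 h samples. The groups did not overlap, yet the changes of 0.48 in cKO (adjusted p = 0.11) and 0.55 in WT (adjusted p = 0.0665) did not pass, and the authors' deposited table called Hspa8 in cKO (adjusted p = 0.0317). Hspa8 passed in WT without WT LPS replicate 2 (0.86, adjusted p = 0.00918), and in cKO without WT LPS replicate 1 (adjusted p = 0.037) or 2 (adjusted p = 0.0381). Dnajb1, the HSP40 co-chaperone, rose by 0.54 (SE 0.15, adjusted p = 0.0201) in cKO and differed by 0.24 in WT; the cKO call was lost without any one of the 4 cKO samples (adjusted p between 0.0634 and 0.102), without filtering (adjusted p = 0.0698) and under quantile normalization (0.24, adjusted p = 0.225). In WT Dnajb1 passed without WT 0 h replicate 1 (0.44, adjusted p = 0.0464). Hspa4 differed by -0.06 in cKO and -0.32 in WT, Hsph1 by -0.05 and -0.19, and Dnajb4 by -0.34 and 0.32. Bag3, a co-chaperone of stress-induced HSP70, differed by 0.39 in cKO and 0.05 in WT, and none of these passed. Under quantile normalization Hspa4 passed as lower in WT (-0.61, adjusted p = 0.0074). Hspb1 lay between -1.23 and -0.80 in all 8 samples. Of the transcription factors, Hsf1 had 7.97 and 8.22 in cKO LPS samples, 8.22 and 8.38 in cKO 0 h samples, 7.76 and 7.92 in WT LPS samples and 8.48 and 8.25 in WT 0 h samples. Hsf1 fell by 0.52 (SE 0.15, adjusted p = 0.0233) in WT and differed by -0.20 (SE 0.15, adjusted p = 0.343) in cKO. The WT call was lost without WT LPS replicate 1 (-0.44, adjusted p = 0.0994), without WT 0 h replicate 1 (-0.41, adjusted p = 0.135), without filtering (adjusted p = 0.0592) and in the authors' deposited table (adjusted p = 0.117). Hsf2 was uneven within WT after LPS (6.88 and 8.76) and passed in neither genotype, but without WT LPS replicate 2 its WT change was -1.40 (adjusted p = 0.015). The mitochondrial chaperones Hspa9, Hspd1 and Hspe1 lay between -0.03 and 0.04 in cKO and between -0.15 and 0.26 in WT. None passed, including Hspd1 and Hspe1 with the heat shock element in their shared promoter. Under quantile normalization Hspa9 (-0.57, adjusted p = 0.0105) and Hspd1 (-0.51, adjusted p = 0.0176) passed as lower in WT.

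Further cytosolic chaperones from a textbook list had 8 rises and 4 falls of 29 tested in cKO (background 19.6% and 17.5%) and 9 rises and 3 falls in WT (background 22.5% and 19.7%). Dnaja2, a relative of Dnaja1, rose by 1.88 in cKO and 2.30 in WT. Dnajc2 rose by 0.55 in cKO and 1.40 in WT. Hspa14 fell by 0.82 in cKO and 0.87 in WT, Fkbp4, an HSP90 co-chaperone, by 0.43 and 0.83, and the small heat shock protein gene Hspb6 by 0.89 in cKO. Of 13 chaperonin and prefoldin genes 5 rose and 0 fell in cKO and 5 rose and 0 fell in WT, with Cct3 at 1.01 in cKO and 0.87 in WT. Cct7 rose by 0.52 in cKO and 0.37 in WT, although its WT change was -0.12 (adjusted p = 0.416) under quantile normalization. Of 14 further mitochondrial chaperones and proteases 3 rose and 1 fell in cKO and 2 rose and 1 fell in WT, with Trap1, the mitochondrial HSP90, at 0.57 in cKO and 0.46 in WT and the protease gene Clpp at -0.35 in cKO and -0.59 in WT.

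**Figure D4:**
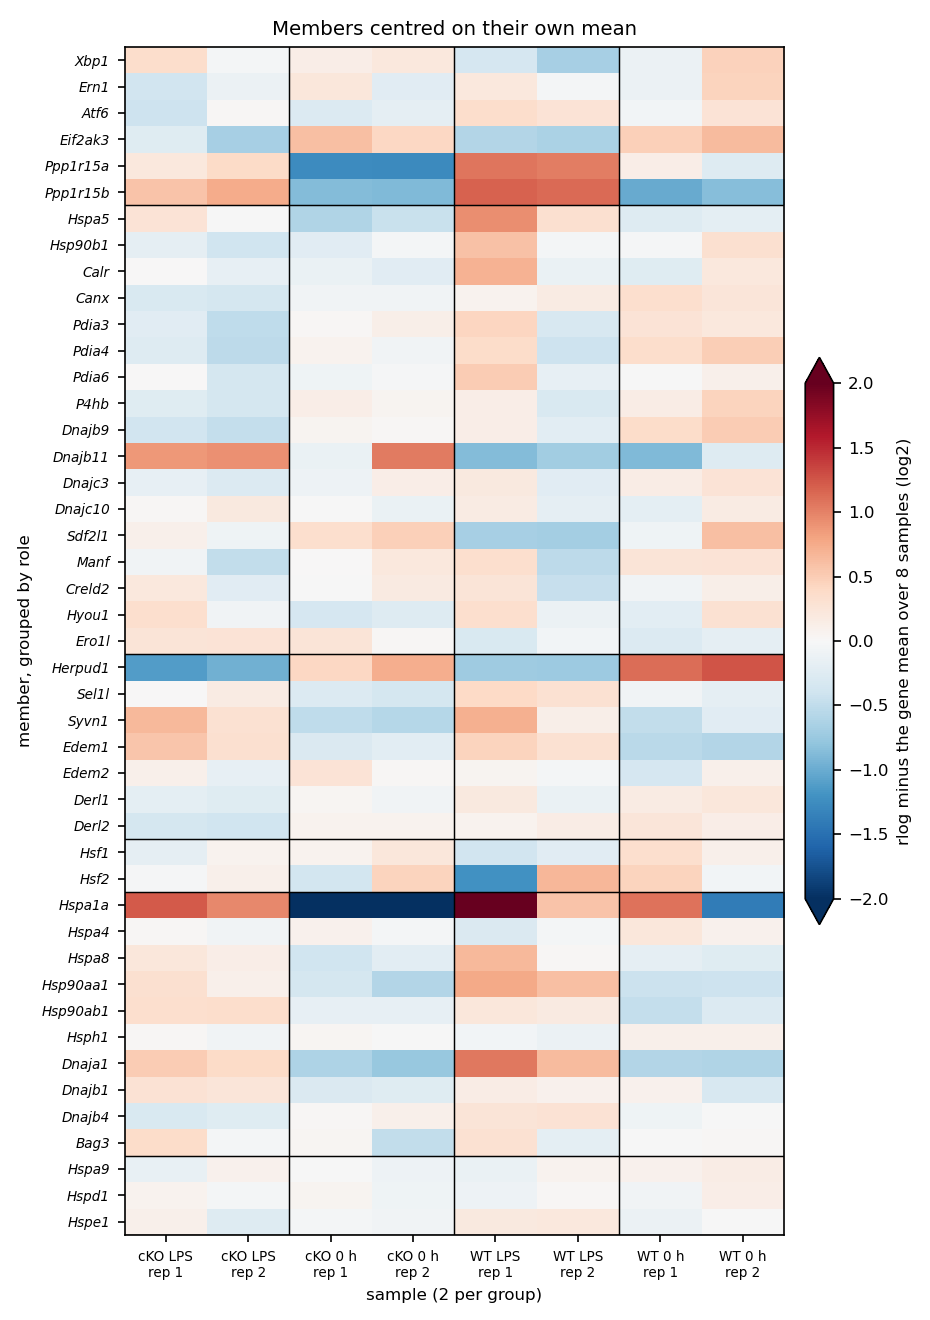
Level of the 45 tested members in each of the 8 samples, as rlog minus the gene's own mean over the samples (log2), with groups separated by vertical lines and roles by horizontal lines; colours saturate at 2 in either direction, which Hspa1a exceeds. Ppp1r15b, Syvn1, Edem1 and Dnaja1 are high and Herpud1 is low in all 4 LPS samples. In WT LPS replicate 1, 14 of the 17 ER folding members are higher than in WT LPS replicate 2, as are 52.5% of all tested genes.

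Few of these genes passed the test between cKO and WT. After LPS 1 of the 45 members was higher in cKO than in WT and 1 was lower (background 1.51% and 2.46%), together 4.44% where 3.97% of all tested genes were called. At 0 h 0 were higher and 1 was lower (background 0.052% and 0.199%), together 2.22% where 0.251% were called. An unadjusted p under 0.05 in limma was reached by 14 of the 45 members after LPS (background 21.5%) and 8 of the 45 at 0 h (background 10.9%). At both times these shares were above the background. The shares called rest on 2 members after LPS and 1 at 0 h, and members were chosen with earlier results of these data known. They are therefore only a description. The median difference was -0.21 after LPS and -0.15 at 0 h, against -0.03 and -0.01 over all tested genes. The authors' deposited table called 3 members higher and 1 lower in cKO after LPS (background 1.36% and 1.61%), and 1 higher and 1 lower at 0 h (background 0.33% and 0.476%).

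Ppp1r15a was the member called lower in cKO at both times. With the levels given above, both cKO samples lay below both WT samples at each time, by 0.76 after LPS (SE 0.15, adjusted p = 0.0355) and by 1.20 at 0 h (SE 0.15, adjusted p = 0.0284). In the authors' deposited table its log2 fold change was -0.77 after LPS (adjusted p = 0.00546) and -1.32 at 0 h (adjusted p = 8.07e-06). The call after LPS was lost without any one of the 4 LPS samples (-0.84 to -0.68, adjusted p between 0.0737 and 0.195), without filtering (adjusted p = 0.122), with the trend omitted (adjusted p = 0.059) and under quantile normalization (-0.41, adjusted p = 0.221). That at 0 h was lost without cKO 0 h replicate 2 (-1.19, adjusted p = 0.161), WT 0 h replicate 1 (-1.01, adjusted p = 0.186) or either cKO LPS sample (adjusted p = 0.0951 and 0.0949), without filtering (adjusted p = 0.0565), with the trend omitted (adjusted p = 0.065) and in a fit of the 4 samples at 0 h alone (adjusted p = 0.123).

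Dnajb11, an ER-resident co-chaperone of BiP (chromosome 16, 22857845 to 22879634, plus strand), was the member called higher in cKO after LPS. Its levels were 10.18 and 10.23 in cKO LPS samples, 9.18 and 10.35 in cKO 0 h samples, 8.44 and 8.62 in WT LPS samples and 8.43 and 9.06 in WT 0 h samples. Every cKO sample exceeded every WT sample, and cKO 0 h replicate 1 stood apart from the other cKO samples. The difference was 1.67 after LPS (SE 0.34, adjusted p = 0.037) and 1.02 at 0 h (SE 0.34, adjusted p = 0.332). In the authors' deposited table it was 1.91 after LPS (adjusted p = 7.19e-13) and 1.24 at 0 h (adjusted p = 0.0476). Without cKO 0 h replicate 1 the difference at 0 h was 1.60 and passed (adjusted p = 0.0322). The call after LPS was lost without any one of the 4 LPS samples (1.58 to 1.76, adjusted p between 0.0783 and 0.228), without filtering (adjusted p = 0.17), under quantile normalization (adjusted p = 0.0633), with the trend omitted (adjusted p = 0.0556) and in a robust fit (adjusted p = 0.0551).

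The groups of many other members did not overlap between genotypes, although their differences did not pass with all samples. Not all of these members are named here. The share of all tested genes without overlap was not computed, so a lack of overlap is only a description of these samples. After LPS Xbp1 was 0.66 higher in cKO (SE 0.22, adjusted p = 0.122) and Sdf2l1 0.68 higher (SE 0.21, adjusted p = 0.102), and in both genes the 2 cKO samples lay above the 2 WT samples. The authors' deposited table called both higher in cKO after LPS, Xbp1 with a log2 fold change of 0.79 (adjusted p = 0.022) and Sdf2l1 with 0.81 (adjusted p = 0.00671). Sdf2l1 also passed without WT 0 h replicate 1 (adjusted p = 0.0349) or 2 (adjusted p = 0.0353) and in the 4 LPS samples alone (adjusted p = 0.0373). Ppp1r15b differed by -0.51 (SE 0.13, adjusted p = 0.0655) and Derl2 by -0.48 (SE 0.11, adjusted p = 0.0538) after LPS, again with no overlap. Derl2 passed with a minimum mean rlog of 5 (adjusted p = 0.0491) and with median centring (adjusted p = 0.0476). Canx differed by -0.45 after LPS and -0.36 at 0 h (SE 0.12 each), with adjusted p of 0.0694 and 0.31. At 0 h Herpud1 was lower in cKO by 0.63 (SE 0.14), a difference that did not pass (adjusted p = 0.165), and after LPS it differed by -0.32. Hspa1a differed by -2.18 at 0 h (SE 0.76, adjusted p = 0.352), and by -0.95 without WT 0 h replicate 1 or -3.42 without WT 0 h replicate 2. The difference of Hspa5 was -0.49 after LPS (adjusted p = 0.24) and -0.30 at 0 h (adjusted p = 0.69).

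**Figure D5:**
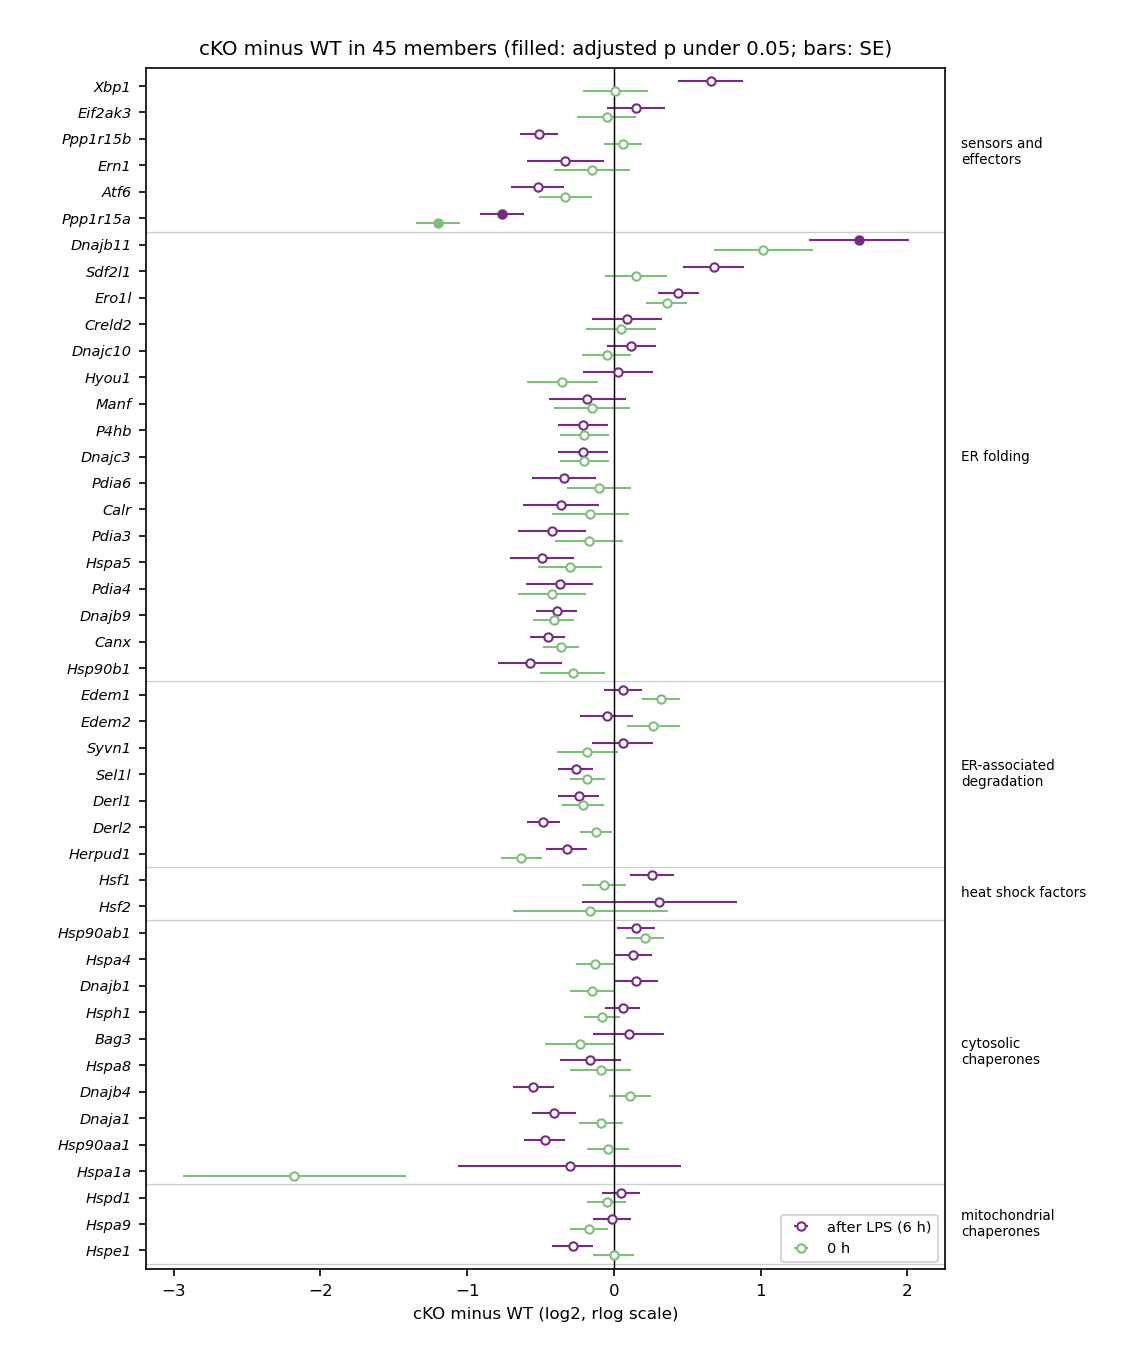
Difference between cKO and WT (log2, rlog scale) of the 45 tested members after LPS (purple, upper point) and at 0 h (green, lower point), grouped by role; bars are the SE of the limma fit and filled points passed an adjusted p of 0.05. Ppp1r15a lies at -0.76 and -1.20 and Dnajb11 at 1.67 after LPS, and the other members have open points.

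Of the other pathway genes, Dnajc1 (-1.04, adjusted p = 0.0156), Dnajb6 (-0.73, adjusted p = 0.0178), Hspa4l (-0.79, adjusted p = 0.0245) and the prefoldin subunit gene Vbp1 (-0.65, adjusted p = 0.0364) were lower in cKO than in WT after LPS. Ubxn4, an ERAD adaptor, was higher (0.87, adjusted p = 0.0335), as was Afg3l2, a mitochondrial protease subunit (1.43, adjusted p = 0.044). At 0 h none of the 145 tested genes of the 7 lists passed.

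The size of the LPS response did not differ detectably between genotypes in any member. The interaction, cKO response minus WT response, had 0 of 45 members past the threshold with limma and 0 of all tested genes (0.0%), and 3 members had an unadjusted p under 0.05, where 6.51% of all tested genes did. These were Dnajb4 (-0.66, SE 0.20, adjusted p = 0.688), Ppp1r15b (-0.56, SE 0.18, adjusted p = 0.699) and Derl2 (-0.37, SE 0.16, adjusted p = 0.762). With 2 samples a group, an interaction of the size seen for Ppp1r15b was not separable from the spread between samples after adjustment. In the fit without replicate blocks, Hspa1a, Dnajb1 and Derl2 passed the threshold in cKO alone, and Xbp1, Sdf2l1 and Hsf1 in WT alone. Such a response is therefore not shown to differ between cKO and WT.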

How the data were processed

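Poly(A) RNA was measured in 8 samples, 2 in each of 4 groups. The authors deposited 1 table of log2 expression values from a regularised log transformation (rlog) with, per the file headers, their own log2 fold changes and p-values for 4 comparisons. Listed in the submitters' processing notes, with no roles, are GRCm38, featureCounts, HISAT2 2.1.0, CASAVA and DESeq2. Neither the annotation, the strand setting nor the treatment of multi-mapping reads is given there. No read counts were used, so depth is unknown and no counting interval can be given.

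limma was run on the 11543 of 55226 genes whose rlog averaged 3 or more: version 3.58.1 in R 4.3.3, with 4 group means, a variance trend, 4 residual and 4.4 prior degrees of freedom, and Benjamini-Hochberg adjustment over all tested genes at 0.05. On simulated data the fit found 55 of 100 genes changed by log2 1 and 93 of 100 changed by log2 2, with 12 false calls. A member that did not pass is therefore not shown to be unchanged. Positions are from GENCODE M21 (GRCm38) and promoters from RefSeq (GRCm38.p6). Biopython 1.88 aligned the transcripts. Alternatives were other filters, scalings, variance settings, left-out samples, replicate blocks and the authors' deposited table; a fit of 4 samples alone was added after seeing the data. Members, lists and rules were chosen with earlier results of these data known. Full values are given for the 8 members with the largest rise and the 8 with the largest fall per comparison, among those past the threshold, and for 9 fixed genes, and up to 2 rises and 2 falls per list and comparison are named. A gene that this rule would name is not reported here.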

Additional observations from a re-analysis of the deposited data

How the results depend on the processing

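Depth is unknown, each group has 2 samples and 1 sample can end a call, so small changes are uncertain. Herpud1, Ppp1r15b, Dnaja1 and Edem1 kept their calls in both genotypes under every alternative run. Under quantile normalization 6 members were higher and 13 lower after LPS in cKO, 5 higher and 16 lower in WT, and 0 higher and 0 lower in cKO against WT after LPS; the change of Hsp90ab1 was -0.06 in cKO and -0.12 in WT and that of Cct7 was -0.12 in WT. Without a filter 7 were higher in cKO and 3 lower in WT after LPS, and 0 differed in either direction between genotypes after LPS or were lower at 0 h. Without a variance trend 0 differed between genotypes at either time, and with a robust fit 0 were higher after LPS. In fits of 4 samples, an alternative chosen after seeing the data, 7 fell in cKO, 2 were higher in cKO than WT after LPS and 0 were lower at 0 h. A minimum of 5, median centring and the replicate block by number each gave 2 members lower in cKO than WT after LPS, Ppp1r15a and Derl2 (adjusted p = 0.0467 for Derl2 with the block). The authors' deposited table had 2 falls in cKO, 3 members higher in cKO after LPS and 1 at 0 h. Leaving out 1 sample gave 4 to 12 rises and 1 to 6 falls in cKO, 7 to 11 rises and 4 to 9 falls in WT, 0 to 2 higher and 0 to 1 lower in cKO after LPS, and 0 to 1 higher and 0 to 1 lower at 0 h. The causes of these shifts were not tested. The replicate block by number kept all 33 calls of the members. The deviations of same-numbered samples of 1 genotype correlated at 0.311 in cKO and 0.222 in WT. Between genotypes the values ran from -0.0418 to 0.2. These values do not settle whether same-numbered samples are paired, and the labels do not say, so the blocks are given as alternatives. Hspa1a also passed in WT with the block by number (adjusted p = 0.026) and by genotype and number (adjusted p = 0.00106), and Hspa8 with the second of these (adjusted p = 0.0356).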
